A study of Homo sapiens with 16 samples.

Results

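The insulin-like growth factor (IGF) axis was examined in IMR32 cells, a human neuroblastoma line with amplified MYCN, after knockdown of TPX2, which encodes a microtubule-binding protein of the mitotic spindle and an activator of the kinase AURKA. The axis was taken as 10 genes of 58787 in the count table, found by the Ensembl identifier of each listed symbol: the ligand IGF2, the receptors IGF1R, IGF2R and INSR, the binding proteins IGFBP2, IGFBP3, IGFBP4 and IGFBP5, and the adaptors IRS1 and IRS2. IGFBP5 was chosen by its count, which was lower under all 3 siRNAs, so its difference from the control is described here without a test. The other members entered by symbol. 8 of the 10 had enough counts for a test, among 14193 genes tested in all. Cells received si45, si46 or si47, the 3 TPX2 siRNAs, or the non-targeting siRNA siNTC. Each of these 4 groups had 4 replicates, so there were 16 libraries, and the column headers give a time of 48 h. All results come from 1 cell line under transient knockdown, and the labels do not say what separated the biological replicates.

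IGF signalling starts when the secreted peptides IGF1 and IGF2 bind the receptor tyrosine kinase IGF1R, or the insulin receptor INSR. The activated receptor phosphorylates the adaptors IRS1 and IRS2, which recruit PI3-kinase and so switch on AKT and mTOR, while SHC and GRB2 lead to RAS and ERK. IGF2R has no kinase and carries IGF2 to lysosomes. The IGFBPs are secreted proteins that hold IGFs outside the cell, and proteases release the peptide again. In neuroblastoma the axis is known as an autocrine growth and survival pathway, and IRS2 transcription rises when FOXO factors are active.

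The promoters of the members are shown first, because several members had lower or higher transcript levels after knockdown and the windows let a reader see the bases at their starts. RefSeq promoter windows (build GRCh38.p14, from 250 bases before to 50 after each start) matched 9 of the 10 members, with 11 windows in all. 4 motifs were searched on both strands: CACGTG, the E-box bound by MYC-family proteins, TTTGAA, the cell cycle homology region of mitotic genes, TAACNG, the MYB site, and TATAAA, the TATA box. CACGTG was present in 7.26% of 35116 promoters, TTTGAA in 15.2%, TAACNG in 20.8% and TATAAA in 11.5%. The IGF2R window held CACGTG 3 times, and 33 promoters (0.094%) held it at least 3 times. IRS1 held it once, and IGFBP4 held the MYB site and the TATA box. Each 30-base stretch is written 5′ to 3′ on the gene's strand, with the motif in capitals.
IGF2R, chr6:159968938-159968967, plus strand: gcgcgctgcgctCACGTGacccgggcctgg
IGF2R, chr6:159968996-159969025, plus strand: gaacaagggagtCACGTGagcggggggcgg
IGF2R, chr6:159969042-159969071, plus strand: ccgggcggctgtCACGTGacgcggttccgg
IRS1, chr2:226799771-226799800, minus strand: gcgcggaggctccgtCACGTGtttttctcc
IGFBP4, chr17:40443326-40443355, plus strand: gccccctcccccTAACGGccgcctctccct
IGFBP4, chr17:40443409-40443438, plus strand: gccagggaccggTATAAAgtccgggggagc
The first base of the motif stood at -132, -74 and -28 from the start in IGF2R. It stood at 35 in IRS1, and at -112 and -29 in IGFBP4. The other hit was TTTGAA in 1 alternative window of IGFBP2. The windows of IGFBP5, IGF1R, INSR, IRS2 and IGFBP3 held none of these letters. A match here is a description of the bases, not a binding site or a cause.

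The libraries came from a 3' end kit, so reads come from transcript ends, and the deposited values were raw counts per gene. Whether PCR duplicates were collapsed is not given, so a read need not stand for 1 transcript. Library totals ran from 5318159 to 7864343 counts. Levels below are CPM, counts scaled to library size with TMM factors, and they are compared between groups for 1 gene at a time. The level of TPX2 itself averaged 327 ± 27.1 CPM (SD, n = 4) among the controls, and the 12 knockdown libraries ranged from 62.2 to 121 CPM. The mean over the 3 siRNAs was -2.01 on the log2 scale (SE 0.0886, adjusted p = 1.13e-15, edgeR quasi-likelihood test with Benjamini-Hochberg adjustment). Replicate 3 had the highest TPX2 level of its group under each siRNA. All 11 adrenergic neuroblastoma markers were tested genes, although TH, which encodes tyrosine hydroxylase, had only 8 to 29 counts. Of the listed markers of fibroblasts, 2 of 6 could be tested (COL1A1 and PDGFRA), of Schwann cells 1 of 4, and of leukocytes and endothelial cells 0 of 4 each. SOX10, CD3E and LYZ had no count in any library. The 6 fibroblast markers summed to 42.9 to 74.1 CPM in siNTC and 29.9 to 87.2 CPM over the siRNA groups. The adrenergic markers summed to 6273 to 6818 CPM in siNTC and 6626 to 7527 CPM under si45, and were above all controls under si46 (6858 to 7868 CPM) and si47 (7093 to 8104 CPM). The 9 mesenchymal-like markers, 5 of them tested, summed to 470.1 to 522 CPM in siNTC and were above all controls under si45 (528 to 610.5 CPM), but not under si46 (479.8 to 589 CPM) or si47 (466 to 558 CPM). The part of these shifts in the results was not tested. In RNA from a whole culture, fewer cells of a type and less RNA per cell cannot be told apart.

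Against siNTC the adaptors moved apart: IRS1 fell and IRS2 rose in the mean of the 3 siRNAs, and IGFBP5 was at 53.1% to 61.0% of its control level under the siRNAs. The receptors and IGFBP2 did not pass the test in any single-siRNA comparison. IGFBP5 is left out of all counts against siNTC, so 7 members were counted. By edgeR's quasi-likelihood test, 0 of 7 had an adjusted p below 0.05 under si45, beside 1.34% of all genes, and 0 of 7 under si46, beside 3.40%. DESeq2 called 0 and 1 of them, the latter being IRS2. Under si47, 3 of 7 passed, beside 9.74% of all genes: IGFBP4 and IRS1 were lower (4.83% of all genes) and IRS2 was higher (4.91%). In the mean of the 3 siRNAs, 2 of 7 passed, IRS1 and IRS2, beside 7.14%. At an unadjusted p below 0.05 the numbers were 4 of 7 under si45, beside 11.4% of all genes, 4 under si46, beside 15.0%, 4 under si47, beside 23.3%, and 6 in the mean, beside 20.4%. The median log2 fold change of the 7 was -0.18 in the mean contrast, beside -0.0011 for all genes tested, with 5 values below 0 and 2 above. These 4 comparisons share the siNTC libraries, and nothing is read from their likeness.

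The libraries of a group did not overlap the controls for the following of the 7 members. Under si45, IRS1 was below all controls, beside 2.95% of all genes. Under si46, IGFBP2 and IRS1 were below, beside 4.67%, and IGF2R and IRS2 were above, beside 5.06%. Under si47, IRS1 was below, beside 6.98%, and IRS2 was above, beside 7.41%. None of the 7 was above all controls in all 12 knockdown libraries, beside 1.49% of all genes.

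**Figure D1:**
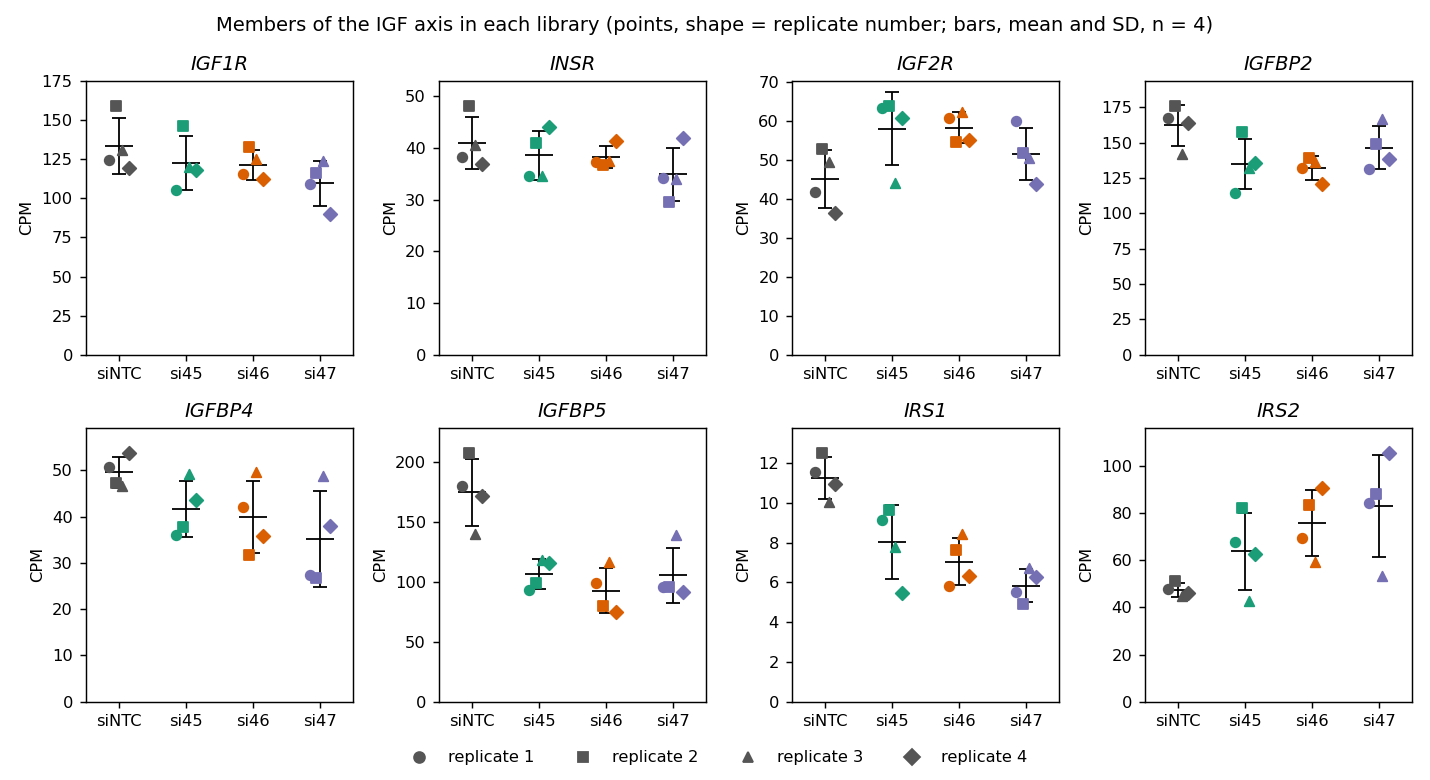
CPM (linear axis from 0) of the 8 tested members in each library, by siRNA group, with bars for the mean and SD (n = 4); the shape of a point gives the replicate number. All 12 knockdown libraries lie below the 4 siNTC libraries for IGFBP5 and IRS1, and 11 of 12 lie above them for IRS2.

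IRS1 (ENSG00000169047, chr2:226731317-226799759 on GRCh38, minus strand) encodes an adaptor that couples IGF1R and INSR to PI3-kinase. Its level was 11.5, 12.5, 10.02 and 10.9 CPM in siNTC replicates 1 to 4, 9.16, 9.63, 7.80 and 5.49 CPM under si45, 5.82, 7.64, 8.42 and 6.33 CPM under si46, and 5.50, 4.90, 6.72 and 6.26 CPM under si47. All 12 knockdown libraries were below all 4 controls, which held for 1.03% of the genes tested. The group means were 11.3 ± 1.05 CPM (SD, n = 4) in siNTC, 8.02 ± 1.86 under si45, 7.05 ± 1.19 under si46 and 5.85 ± 0.808 under si47. By edgeR's quasi-likelihood test with Benjamini-Hochberg adjustment, IRS1 fell under si47 by 0.94 on the log2 scale (SE 0.239, adjusted p = 0.00833). The same test gave -0.48 under si45 (SE 0.232, adjusted p = 0.422) and -0.68 under si46 (SE 0.235, adjusted p = 0.113). The mean over the siRNAs was -0.70 (SE 0.185, adjusted p = 0.0151). The si47 call stayed below 0.05 in all 25 alternatives (adjusted p up to 0.0348). The call in the mean was lost without siNTC replicate 1 (0.0544) or siNTC replicate 2 (0.0743).

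IRS2 (ENSG00000185950, chr13:109752698-109786568, minus strand) encodes the second adaptor expressed here, with the same place in the pathway. It was at 47.8, 51.1, 44.6 and 45.97 CPM in siNTC, 67.7, 82.0, 42.7 and 62.6 CPM under si45, 69.5, 83.3, 59.4 and 90.7 CPM under si46, and 84.4, 88.0, 53.4 and 105.5 CPM under si47. 11 of 12 knockdown libraries were above all controls, and si45 replicate 3 was below all of them. The share of all genes with 11 of 12 above is not given here, and 1.49% had all 12 above. Replicate 3 was the lowest library of each siRNA group. IRS2 rose under si47 by 0.80 on the log2 scale (SE 0.2004, adjusted p = 0.0164 by edgeR's quasi-likelihood test, Benjamini-Hochberg). The values were 0.43 under si45 (SE 0.202, adjusted p = 0.434) and 0.67 under si46 (SE 0.201, adjusted p = 0.0840). In the mean of the siRNAs IRS2 rose by 0.64 (SE 0.169, adjusted p = 0.0304). Leaving out any 1 of the 4 siNTC libraries took the mean to an adjusted p of 0.0673 to 0.102, and without siNTC replicate 3 the si47 value had 0.0501. Under si46 the adjusted p passed in 10 of 25 alternatives, 8.81e-03 with DESeq2 among them.

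IGFBP5 (ENSG00000115461, chr2:216672105-216695525, minus strand) encodes a secreted binding protein that is also held in the extracellular matrix. Its level was 179.7, 207.4, 139.6 and 171.6 CPM in siNTC, 93.3, 98.6, 118.4 and 115.6 CPM under si45, 99.1, 80.02, 116.7 and 75.1 CPM under si46, and 95.4, 95.3, 139.1 and 91.4 CPM under si47. The knockdown libraries lay below the controls, with si47 replicate 3 (139.1 CPM) next to siNTC replicate 3 (139.6 CPM). The means were 175 ± 27.9 CPM (SD, n = 4) in siNTC, 106 ± 12.4 under si45, 92.7 ± 19.03 under si46 and 105 ± 22.6 under si47, or 61.0%, 53.1% and 60.3% of siNTC. The log2 fold changes that chose the gene were -0.72 (SE 0.151), -0.91 (SE 0.152) and -0.73 (SE 0.152).

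The siRNAs could be set against each other for IGFBP5 without the control libraries. si46 was at -0.20 relative to si45 (95% interval from the standard error, -0.50 to 0.10). si47 was at -0.01 relative to si45 (-0.31 to 0.29) and at 0.18 relative to si46 (-0.12 to 0.48). None of these passed, which does not show that the siRNAs act alike on IGFBP5. IGFBP5 stands beside IGFBP2 on chromosome 2 in opposite orientation. Of the 18 neighbouring, tensin and IGF2-overlapping genes listed, 10 could be tested. In the mean contrast 0 passed (0 with DESeq2), beside 7.14% of all genes. At an unadjusted p below 0.05 there were 2, beside 20.4% of all genes. Of the 10 values in the mean contrast, 6 were below 0 and 4 above. The 2 genes at an unadjusted p below 0.05 were TNS1 and RPL37A. TNS1, a tensin gene on the IGFBP5 side, was at -0.64 (SE 0.218, adjusted p = 0.0725, edgeR quasi-likelihood test). RPL37A, a ribosomal protein gene on the IGFBP2 side, was at 0.18 (adjusted p = 0.0992). Under si47, 1 of the 10 passed, near the 9.74% of all genes. It was RPL37A, which rose by 0.28 (adjusted p = 0.0244, edgeR quasi-likelihood test).

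IGFBP4 (ENSG00000141753, chr17:40443461-40457731, plus strand) encodes a binding protein that inhibits IGF action and is cut by the protease PAPPA. It was at 50.7, 47.2, 46.7 and 53.8 CPM in siNTC, 36.0, 37.8, 49.2 and 43.7 CPM under si45, 42.2, 31.8, 49.7 and 35.8 CPM under si46, and 27.3, 26.9, 48.7 and 37.9 CPM under si47. Replicate 3 was the highest library under each siRNA and overlapped the controls, and the other 9 knockdown libraries were below all controls. The share of all genes with 9 of 12 below is not given here, and 1.03% had all 12 below. IGFBP4 fell under si47 by 0.49 (SE 0.159, adjusted p = 0.0448 by edgeR's quasi-likelihood test, Benjamini-Hochberg). It was at -0.25 under si45 (adjusted p = 0.586) and -0.31 under si46 (adjusted p = 0.356). Leaving out 1 library ended the si47 call in 11 of 16 cases, namely any siNTC library, si45 replicate 2 or 4, si46 replicate 1 or 4, and si47 replicate 1, 2 or 4, with adjusted p-values from 0.0504 to 0.177. The mean over the siRNAs was -0.35 (adjusted p = 0.0888). It passed with no filter (0.0308) and without si45, si46 or si47 replicate 3 (0.0471, 0.0461 and 0.0149). Without replicate 3 of all 4 groups, an alternative chosen after the data were seen, it was -0.52 (adjusted p = 0.00410).

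IGFBP2 (ENSG00000115457, chr2:216632828-216664436, plus strand) encodes a binding protein that is abundant in the developing nervous system. It was at 167, 176, 142 and 164 CPM in siNTC, 114, 158, 132 and 136 CPM under si45, 132, 139, 136 and 121 CPM under si46, and 131, 149, 167 and 138 CPM under si47. The si46 libraries were all below the controls, while the other siRNA groups overlapped the controls. The mean over the siRNAs was -0.24 (SE 0.0789, adjusted p = 0.0611, edgeR quasi-likelihood test), and it passed without siNTC replicate 3 (0.0377), si45 replicate 2 (0.0352) or si47 replicate 3 (0.0273). Under si46 it was -0.30 (adjusted p = 0.0918), and -0.29 (0.0477) with the compared groups alone.

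IGFBP3 (ENSG00000146674, chr7:45912245-45921874, minus strand), the main IGF carrier of serum, had 33 counts in all 16 libraries together. The group sums were 5 counts in siNTC, 11 under si45, 12 under si46 and 5 under si47, and 4 libraries had none. A count of 0 allows up to 3 counts, or 0.381 to 0.564 CPM in these libraries, for counting error only. IGFBP3 was too low to test.

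**Figure D2:**
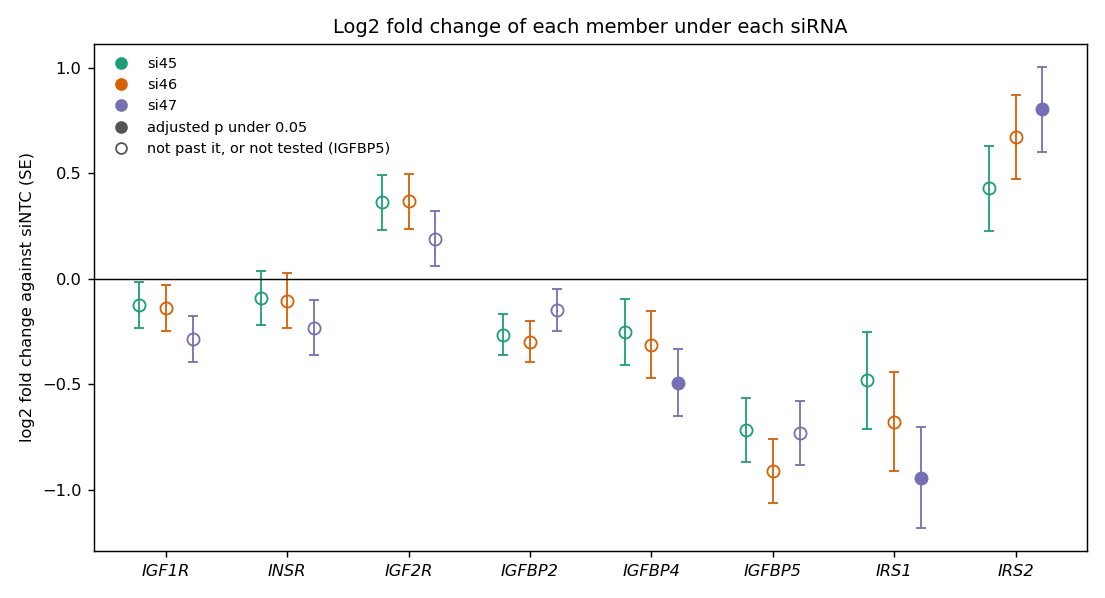
Log2 fold change against siNTC for each tested member under si45, si46 and si47, with bars of 1 SE each side; filled points had an adjusted p below 0.05, and open points did not or, for IGFBP5, were not tested. IRS1 and IRS2 lie on opposite sides of 0 under each siRNA.

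IGF2R (ENSG00000197081, chr6:159969099-160113507, plus strand), the clearance receptor for IGF2, was at 41.8, 52.9, 49.5 and 36.4 CPM in siNTC. It was at 63.5, 63.9, 44.0 and 60.9 CPM under si45, 60.9, 54.6, 62.5 and 55.1 CPM under si46, and 60.04, 51.9, 50.4 and 43.9 CPM under si47. The si46 libraries were all above the controls, and the other siRNA groups overlapped them. The log2 fold changes were 0.36, 0.37 and 0.19 under si45, si46 and si47 (SE 0.130, 0.130 and 0.131). The mean over the siRNAs was 0.31 (SE 0.108, adjusted p = 0.0789, edgeR quasi-likelihood test), which did not pass. It passed without siNTC replicate 2 (0.0481) or si45 replicate 3 (0.0238), and without the latter the si45 value passed too (0.0321). A same-strand gene, AL353625.1, overlaps IGF2R and had 2 to 18 counts.

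IGF1R (ENSG00000140443, chr15:98648539-98964530, plus strand), the receptor that transmits the IGF signal, was at 133.6 ± 17.8 CPM in siNTC (SD, n = 4), 122.6 ± 17.1 under si45, 121.5 ± 9.52 under si46 and 109.7 ± 14.5 under si47. Its libraries ran from 119.2 to 159.2 CPM in siNTC and from 89.9 to 146.3 CPM after knockdown, and the groups overlapped. The mean over the siRNAs was -0.18 (SE 0.0875, adjusted p = 0.229, edgeR quasi-likelihood test). Under si47 it was -0.29 (adjusted p = 0.0943), which passed without si47 replicate 3 (0.0420) and with the replicate number as a block (0.0135). INSR (ENSG00000171105, chr19:7112255-7294034, minus strand), the insulin receptor, which also binds IGF2, lay between 37.0 and 48.2 CPM in siNTC and between 29.6 and 44.1 CPM after knockdown. Its mean over the siRNAs was -0.14 (adjusted p = 0.484, 95% interval -0.35 to 0.06), and its groups overlapped.

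IGF2 was listed at 0 in every library. It has a pair of Ensembl identifiers on chromosome 11, ENSG00000167244 (chr11:2129112-2149603, minus strand) and ENSG00000284779, and both ended at base 2129112. Their transcripts shared up to 5144 bases at the 3' end, from which reads of this kit come, and the sources used here do not give how reads in shared ends were counted. ENSG00000284779 and INS-IGF2, a same-strand gene that overlaps IGF2, also had 0 counts in every library. With the counting of shared ends not given, these zeros do not measure absence of IGF2 RNA. H19, the imprinted neighbour of IGF2, had 26 to 114 counts, with a mean change of 0.43 (adjusted p = 0.586, edgeR quasi-likelihood test).

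The siRNAs were compared with each other for all 8 tested members. No member passed in any of the 3 pairs by edgeR's quasi-likelihood test (0 of 8 each, also at an unadjusted p below 0.05 and with DESeq2), beside 0.0282% of all genes for si46 against si45, 0.169% for si47 against si45 and 0.0493% for si47 against si46. The values farthest from 0 were those of the adaptors. IRS1 under si47 was at -0.46 relative to si45 (95% interval -0.94 to 0.02, adjusted p = 0.516). IRS2 under si47 was at 0.38 relative to si45 (-0.01 to 0.76, adjusted p = 0.534). With the replicate number as a block, which pairs the si45 and si47 libraries, the IRS2 difference was 0.37 (adjusted p = 0.0459).

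Within the knockdown libraries, each member was set against the TPX2 that remained. Same-numbered libraries of the siRNA groups tended to deviate together, which the permutation does not allow for, so its p-values may be too small. Across the 12 libraries, IRS2 on the log2(CPM + 1) scale was higher where TPX2 was lower, with Pearson's r of -0.81 (permutation p = 0.0016, 0.0128 after Benjamini-Hochberg adjustment over the 8 members). Spearman's rho was -0.78 (permutation p = 0.00422, adjusted 0.0338), and r on values centred within each siRNA was -0.77 (permutation p = 0.00131, adjusted 0.0105). Without si45 replicate 3 and si46 replicate 4, the libraries farthest from the median TPX2, r was -0.62 (permutation p = 0.0549, adjusted 0.216). It did not pass there, with fewer libraries and a narrower range of TPX2. Without replicate 3 of all siRNAs, r was -0.75 over 9 libraries (exact permutation p = 0.0216, adjusted 0.173).

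The binding proteins IGFBP4 and IGFBP5 had the opposite sign. IGFBP4 had r = 0.67 with TPX2 (permutation p = 0.0153, adjusted 0.0611) and rho = 0.73 (permutation p = 0.00911, adjusted 0.0364), and within siRNAs r was 0.59 (permutation p = 0.0103, adjusted 0.0275). IGFBP5 had r = 0.54 (permutation p = 0.0660, adjusted 0.176) and rho = 0.59 (permutation p = 0.0471, adjusted 0.126), and within siRNAs r was 0.69 (permutation p = 0.0035, adjusted 0.0140). Without the 2 libraries named above, r was 0.72 for IGFBP4 (adjusted 0.171) and 0.28 for IGFBP5 (adjusted 0.502). Without replicate 3 of all siRNAs, r was 0.59 for IGFBP4 (exact permutation p = 0.0975, adjusted 0.260) and 0.59 for IGFBP5 (exact permutation p = 0.0940, adjusted 0.260). Neither passed there, over 9 libraries. For the other 5 members the adjusted p was at least 0.367 in the pooled forms. Replicate 3, with the most TPX2 in each siRNA group, had the smallest departure from control in IGFBP4, IGFBP5 and IRS2 under all 3 siRNAs.

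**Figure D3:**
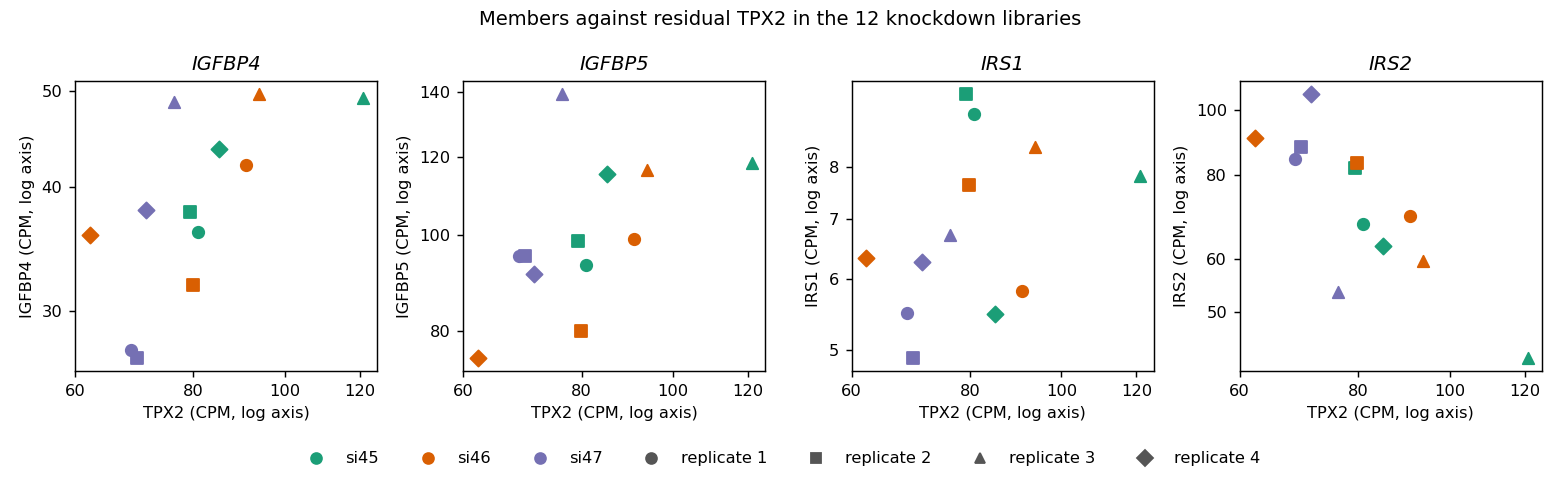
CPM (log axes) of IGFBP4, IGFBP5, IRS1 and IRS2 against CPM of TPX2 in the 12 knockdown libraries, with colour for the siRNA and shape for the replicate number. The replicate 3 libraries (triangles) are the highest of their siRNA for TPX2, IGFBP4 and IGFBP5 and the lowest for IRS2, while IRS1 (r = 0.39, permutation p = 0.215, adjusted 0.431) did not pass.

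The genes whose levels followed IGFBP5 most closely over all 16 libraries, among 9184 with a mean of at least 10 CPM, were PDE2A (r = 0.960), PHLDB2 (0.921), CBX5 (0.911), ADCY1 (0.897) and KCNG1 (0.896). PDE2A encodes a phosphodiesterase of cyclic nucleotides, ADCY1 an adenylyl cyclase, CBX5 a heterochromatin protein and KCNG1 a potassium channel subunit. With the group means removed, r was 0.884, 0.751, 0.700, 0.826 and 0.655 in that order. These values share libraries, depth and the knockdown itself, and are a description.

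Around the members, the pathway was described by lists of genes that were chosen with earlier results of these data known. In the list of other IGF axis genes, 5 of 15 could be tested. In the mean contrast 0 passed (edgeR quasi-likelihood test, 1 with DESeq2), beside 3.61% higher and 3.53% lower among all genes. At an unadjusted p below 0.05 there was 1, beside 20.4% of all genes. The gene that DESeq2 called was STC1, an inhibitor of the PAPPA proteases, at 0.29 (SE 0.0979, adjusted p = 0.0680 by edgeR). All 12 knockdown libraries were above the controls for STC1, which held for 1.49% of the genes tested. IGF1, INS, IGFALS, IGFBP1, IGFBP7 and IRS4 had at most 2 counts in all libraries together, and PAPPA had 14. IGFBPL1, an IGFBP-like gene, had -0.08 (adjusted p = 0.559).

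Of the adaptors and feedback genes, 17 of 19 were tested and 0 passed in the mean contrast (0 with DESeq2), beside 7.14% of all genes. At an unadjusted p below 0.05 there were 3, beside 20.4% of all genes. SOCS1, a feedback inhibitor, had 1.43 (adjusted p = 0.0842, edgeR quasi-likelihood test), and RACK1 and YWHAZ had 0.17 each. The SOCS1 value rests on few reads, with 2 to 5 counts per siNTC library and 2 to 22 per knockdown library. Of the PI3K, AKT and mTOR genes, 30 of 33 were tested, 0 rose and 1 fell, which is near the 3.53% of all genes that were lower. This was AKT2, an AKT kinase, at -0.28 (SE 0.0822, adjusted p = 0.0291), which did not pass without any 1 siNTC library, si45 replicate 1 or 2, or si47 replicate 1. The list's median was -0.004.

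Of the RAS and ERK genes, 21 of 21 were tested, 4 rose and 0 fell, beside 3.61% higher and 3.53% lower among all genes, with a median of 0.29. The risers were DUSP6 (2.03, SE 0.389, adjusted p = 0.00378), DUSP4 (1.47, SE 0.279, adjusted p = 0.00173), SPRY2 (1.26, SE 0.358, adjusted p = 0.0251) and ELK1 (0.53, SE 0.164, adjusted p = 0.0406). DUSP4 and DUSP6 encode phosphatases that switch off ERK, SPRY2 an inhibitor of receptor signalling, and ELK1 a transcription factor that ERK activates. Counts per siNTC library were low for SPRY2 (6 to 14) and DUSP6 (10 to 33). With DESeq2 6 passed and with limma-voom 2, and without siNTC replicate 1 or siNTC replicate 4 DUSP4 and DUSP6 alone did.

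Of the FOXO factors and FOXO-linked transcripts, 14 of 16 were tested, 1 rose and 0 fell, with a median of 0.12. For a list of this size, 1 riser is near the 3.61% of all genes that were higher. The riser was TXNIP, an inhibitor of thioredoxin and glucose uptake, at 0.39 (SE 0.104, adjusted p = 0.0170, edgeR quasi-likelihood test). With DESeq2 3 passed, TXNIP, PIK3IP1 and BCL6. By edgeR PIK3IP1 was at 1.21 (adjusted p = 0.0534) and BCL6 at 1.02 (adjusted p = 0.0788). Both had few reads, with 4 to 19 and 7 to 14 counts per siNTC library. Of the 14 values in the list, 9 were above 0 and 5 below. Without siNTC replicate 1 or siNTC replicate 3 none of this list passed, and without replicate 3 of all 4 groups KLF6 did and TXNIP did not. IRS2 was kept out of the list as a member of the axis.

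In the last list, of p53-linked regulators of IGF, AKT and mTOR signalling, 7 of 11 rose and 0 fell, beside 3.61% and 3.53% of all genes, with a median of 1.03. The p53 response of these cells was known when this list was drawn up, so its direction is no independent evidence. PHLDA3, which competes with AKT for membrane lipid, rose by 1.79 (SE 0.140, adjusted p = 4.65e-11, edgeR quasi-likelihood test). SESN1 rose by 1.80 and SESN2 by 1.59, both sestrins that restrain mTORC1. PLK2 rose by 2.51, PLK3 by 1.82, DDIT4 by 1.03 and PRKAB1 by 0.69. TSC2, PHLDA1 and RRAGD were among those that did not pass, and RRAGD is an activator of mTORC1 rather than a brake.

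**Figure D4:**
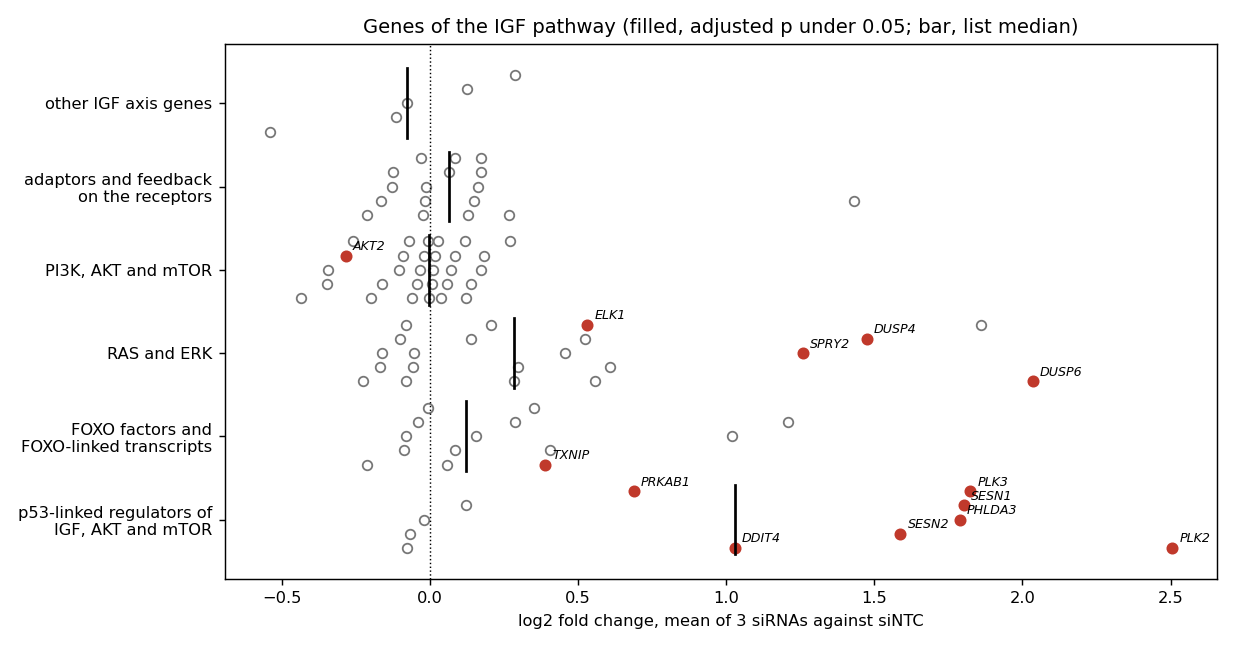
Log2 fold change in the mean of 3 siRNAs against siNTC for the tested genes of the 6 pathway lists, 1 point per gene, filled where the adjusted p was below 0.05, with a bar for the list median. The filled points are 7 in the p53-linked list, 4 in RAS and ERK, 1 in FOXO (TXNIP) and 1 in PI3K, AKT and mTOR (AKT2).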

How the data were processed

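Total RNA of 16 IMR32 libraries was profiled with a 3' end kit (QuantSeq), per the labels. The authors deposited 1 table of raw counts per Ensembl gene, whole numbers with no normalization. The submitters' processing notes name FastQC 0.11.7, STAR 2.7.2b, edgeR 3.36.0, limma 3.50.3 and GRCh38. The counter, its annotation, its use of strand and any collapsing of PCR duplicates are not given in the sources used here, so overlapping genes cannot be told apart. Mitochondrial genes were not analysed as a group here, and no step of the processing here took them out of the counts or CPM. A gene name table gave symbols for 58434 of 58787 identifiers, and positions are from GENCODE release 29 on GRCh38.

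IGFBP5 is in no count against siNTC. The members and the gene lists were chosen with earlier results of these data known. Counts were filtered with filterByExpr (minimum count 10, minimum total 15), scaled by TMM and fitted in 1 robust edgeR 4.0.16 quasi-likelihood model of 4 group means (R 4.3.3), with p-values adjusted by Benjamini-Hochberg over 14193 genes in each contrast and a threshold of 0.05. The standard error is the log2 fold change divided by the square root of F. Relations to TPX2 used log2(CPM + 1) and 100000 resamples, or exact enumeration for 9 libraries. The p-values measure the spread between the replicates of 1 cell line. Depth was 5318159 to 7864343 counts per library, and the lowest count of a tested member in a library was 27. Intervals and floors cover counting error and replicate spread as stated, without PCR duplicates.

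Named genes were all members, TPX2, genes among the 5 of each list with the lowest p for the mean of the siRNAs, neighbours that passed, and the 5 genes most like IGFBP5. In some lists not all of the 5 with the lowest p are printed. The others named were chosen after their values were seen. An item that a gene list covers is not reported here. Alternatives changed the scaling (RLE or upper quartile), the tool (DESeq2 1.42.0 or voom in limma 3.58.1), the filter (none, or 10 counts in each library), the libraries fitted (the compared groups alone, or 1 library omitted) or added a block for replicate number. For the si45 and si47 groups, same-numbered libraries deviated together with r above 0.1 in 4 of 4 pairs (r = 0.12 to 0.242). It was above 0.1 in 3 of 4 pairs for si45 and si46 (0.0716 to 0.247) and for si46 and si47 (0.0854 to 0.209). In each of these comparisons 8 of 8 libraries correlated best with their own number. This pairing comes from the values and not from the labels. The 24 replicate pairs within groups differed by more than sampling noise (chi-square per degree of freedom 4.46 to 10.3).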

Additional observations from a re-analysis of the deposited data

Results flagged for a closer look

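A few libraries stood apart from the other 3 of their group by a gap test, which was met in 3 of the 36 groups examined (chance alone meets it in about 1 of 20 groups). All 3 were replicate 3. IGF2R in si45 replicate 3 was at 44.0 CPM, with the others at 60.9 to 63.9 CPM. IGFBP5 in si47 replicate 3 was at 139 CPM, with the others at 91.4 to 95.4 CPM. TPX2 in si45 replicate 3 was at 121 CPM, with the others at 79.4 to 85.1 CPM. No cause was tested.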

How the results depend on the processing

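The number of the 7 members called rose under several alternatives, for reasons not tested. Under si45 it went from 0 to 1 with no filter or the replicate block and 2 without replicate 3 of all groups (0 to 1 leaving out 1 library; 1 without si45 replicate 3). Under si46 it went from 0 to 1 with DESeq2 or no filter, 2 with only the groups compared or without replicate 3, and 3 with the replicate block (0 to 1 leaving out 1 library; 1 without si45 replicate 2 or 3, si46 replicate 3 or si47 replicate 3 or 4). Under si47 it was 3 (1 to 4 leaving out 1 library; 1 without siNTC replicate 3), and with the replicate block IGF1R also passed (adjusted p = 0.0135, edgeR quasi-likelihood test). In the mean it went from 2 to 5 with the replicate block or without replicate 3 (0 to 4 leaving out 1 library; 0 without siNTC replicate 1, 1 without siNTC replicate 2 or 4, 4 without si45 or si47 replicate 3). With the block, the mean gave adjusted p-values of 0.0106 for IGFBP2, 0.00635 for IGFBP4 and 0.0230 for IGF2R. For si47 against si45 the block gave 1 and not 0.

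Of the lists, other IGF axis genes gave 1 with DESeq2, the block or without replicate 3 of all groups (0 to 1 leaving out 1 library), adaptors 2 with the block, PI3K, AKT and mTOR 3 with the block and 2 without replicate 3 (0 to 2), RAS and ERK 2 with limma-voom and 2 to 5 leaving out 1 library, FOXO 3 with DESeq2 and 2 with the block (0 to 2), and the p53-linked list 6 to 7. For the lists, limma-voom and the omission of replicate 3 were chosen after the data were seen.

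IGF2R in si46 against si45 went from 0.0045 to -0.0037 with no filter and -0.14 without replicate 3. Leaving out 1 library changed the sign of INSR under si45 (-0.16 to 0.0020), of IGF1R (-0.086 to 0.079), IGF2R (-0.11 to 0.052), INSR (-0.068 to 0.056), IGFBP2 (-0.11 to 0.047) and IGFBP4 (-0.19 to 0.032) in si46 against si45, of IGFBP5 in si47 against si45 (-0.18 to 0.047) and of IRS2 in si47 against si46 (-0.0063 to 0.29). Against TPX2, r of IGF2R went from -0.11 to 0.57 without the 2 farthest libraries and 0.48 without replicate 3, of INSR from -0.05 to 0.39 and 0.15, and of IGFBP2 from -0.04 to 0.21 centred and 0.0996 without replicate 3. Between siNTC and each siRNA group, same-numbered libraries correlated above 0.1 in 2, 1 and 1 of 4 pairs for si45, si46 and si47. There 8, 5 and 5 of 8 libraries correlated best with their own number, which is a hint from the data and not from the design.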
